A study of Homo sapiens with 56 samples.

Results

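The 6 genes described here encode transporters that carry drugs across cell membranes: the importer SLC35F2 and the efflux pumps ABCB1, ABCC1, ABCC4, ABCC5 and ABCC10. Their values were taken by gene symbol, and each symbol was found once among 21595 named genes of a table of poly-A RNA-seq expression values over 56 libraries. The libraries came from 4 cultures of human mantle cell lymphoma lines, a B-cell lymphoma: JEKO-1 and MINO-P with 15 libraries each, and Z138 and MINO-VR with 13 each, where the labels leave P and VR unexplained. Cells were untreated (CON, 5 libraries) or received 1 agent, namely IBR (11 libraries), S63845 (6), CLF (6), BTZ (6) or YM155 (4). The pairs given together were IBR_CLF (8 libraries), IBR_YM155 (2), IBR_S63845 (1), BTZ_CLF (4), BTZ_YM155 (2) and BTZ_S63845 (1). S63845 inhibits the MCL-1 protein, and YM155 came from a search for compounds that lower survivin (BIRC5). The study's design text names a PI and a BTKi as partners of these drugs, and BTZ, IBR and CLF are used here as label codes. Doses and exposure times are not given in the sources used here. No label says that libraries of a group came from separate cultures, so p-values measure the spread between these libraries, which may be technical.

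The amount of a drug inside a cell depends on carriers that let it in and on pumps that push it out. SLC35F2 belongs to the solute carrier superfamily and is known as the protein that takes YM155 into cells. ABCB1 (P-glycoprotein) and the ABCC or MRP proteins use ATP to export substrates: ABCB1 acts on many hydrophobic chemotherapeutics, and ABCC1 (MRP1) on glutathione conjugates and anthracyclines. ABCC4 (MRP4) and ABCC5 (MRP5) export cyclic nucleotides and nucleotide analogues, and ABCC10 (MRP7) exports taxanes among other drugs.

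Promoter sequences are shown for SLC35F2 and ABCC4, whose fitted mRNA level was lower under IBR, and for ABCB1, whose reads came mostly from few libraries. The IBR results depended on the libraries and settings used, as given below. They are the 250 bases before the RefSeq start (GRCh38.p14), read 5′ to 3′ on the gene's minus strand. Capitals mark matches on either strand to CCAAT, to GGGCGG or to TGACNNNGC, the core of the antioxidant response element.
SLC35F2, chr11:107858788-107859037: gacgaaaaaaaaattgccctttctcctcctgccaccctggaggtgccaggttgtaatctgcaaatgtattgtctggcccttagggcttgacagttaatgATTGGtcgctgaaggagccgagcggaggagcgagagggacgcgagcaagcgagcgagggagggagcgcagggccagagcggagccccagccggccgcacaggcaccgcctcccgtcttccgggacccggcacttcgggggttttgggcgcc
ABCC4, chr13:95301452-95301701: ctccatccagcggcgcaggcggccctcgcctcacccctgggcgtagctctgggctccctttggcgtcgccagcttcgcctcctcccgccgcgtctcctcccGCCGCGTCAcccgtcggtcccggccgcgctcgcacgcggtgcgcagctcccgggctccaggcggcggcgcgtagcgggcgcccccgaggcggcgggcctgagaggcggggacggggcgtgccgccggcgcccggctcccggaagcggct
ABCB1, chr7:87600885-87601134: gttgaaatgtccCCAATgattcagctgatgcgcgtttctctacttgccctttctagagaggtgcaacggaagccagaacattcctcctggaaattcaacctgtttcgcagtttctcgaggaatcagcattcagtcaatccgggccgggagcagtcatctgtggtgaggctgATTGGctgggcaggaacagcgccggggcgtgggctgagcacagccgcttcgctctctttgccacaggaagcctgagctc
The SLC35F2 stretch was 62.8% G and C and held 1 CCAAT match, a motif present in 32.0% of 34943 RefSeq promoters of the same length. The ABCC4 stretch was 80.4% G and C and held 1 TGACNNNGC match, found in 10.9% of those promoters, and no CCAAT or GGGCGG. The ABCB1 stretch, 55.6% G and C, held 2 CCAAT matches. A further RefSeq start of ABCB1 lies upstream, and its 250 bases (chr7:87713296-87713545) were 39.2% G and C with none of these motifs. GGGCGG was present in 42.6% of promoters and in none of the 3 sequences shown. A match is a run of letters and not a measured binding site.

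Expression is given as nuclear CPM, the CPM recomputed after 15 mitochondrially encoded genes were left out and each library was rescaled to the same total. This was done because those genes took 1.91% to 80.5% of a library (median 6.69%) and over 50% in 6 JEKO-1 libraries, namely BTZ, BTZ_CLF and IBR_CLF replicates 1 and 2 of each. Depth recovered from the values was 5.51 to 21.5 M reads, and 3 reads corresponded to 0.146 to 2.18 nuclear CPM. The B-cell genes MS4A1, CD79A, CD79B, PAX5 and BLK and the mantle cell lymphoma genes CCND1 and SOX11 were at or above 1 nuclear CPM in all 56 libraries. CD2 and DCN, markers of T cells and fibroblasts, were at 0 in 53 and 54 libraries. Other such genes did reach 1 nuclear CPM: CD3G in 13 libraries, CD68 in 42, EPCAM in 53 and COL1A1 in 46, and their part in the results was not tested. Of 23 pairs of libraries of the same line and treatment, the 8 pairs from MINO-P, MINO-VR and JEKO-1 whose names differ only by a final letter were far closer (chi-square per degree of freedom 4.10 to 8.69) than 10 other pairs (90.4 to 365). In Z138 the 5 pairs named that way were at 52.4 to 311. The library labelled JEKO-1 BTZ replicate 3 stood apart from the other JEKO-1 BTZ libraries: the stress gene HMOX1 was at 5.53 nuclear CPM there, 335 and 328 in replicates 1 and 2, and 12.35 in JEKO-1 CON.

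ABCC1 and SLC35F2 were the most abundant of the 6 mRNAs and ABCB1 was close to undetected. Per kilobase of exon, the median level over 56 libraries was 15.4 nuclear CPM for ABCC1, 12 for SLC35F2, 1.73 for ABCC10, 1.20 for ABCC5, 0.481 for ABCC4 and 0.0198 for ABCB1. ABCC1 and SLC35F2 did not keep a fixed order, with ABCC1 higher in 31 of 56 libraries, whereas SLC35F2 exceeded ABCC10 in all 56. ABCC10 was above ABCC5 in 39 libraries and ABCC5 above ABCC4 in 44. SLC35F2, ABCC1 and ABCC10 reached 1 nuclear CPM in all 56 libraries, ABCC5 in 55, ABCC4 in 41 and ABCB1 in 12. ABCB1 was at or below the level of 3 reads in 36 libraries.

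**Figure D1:**
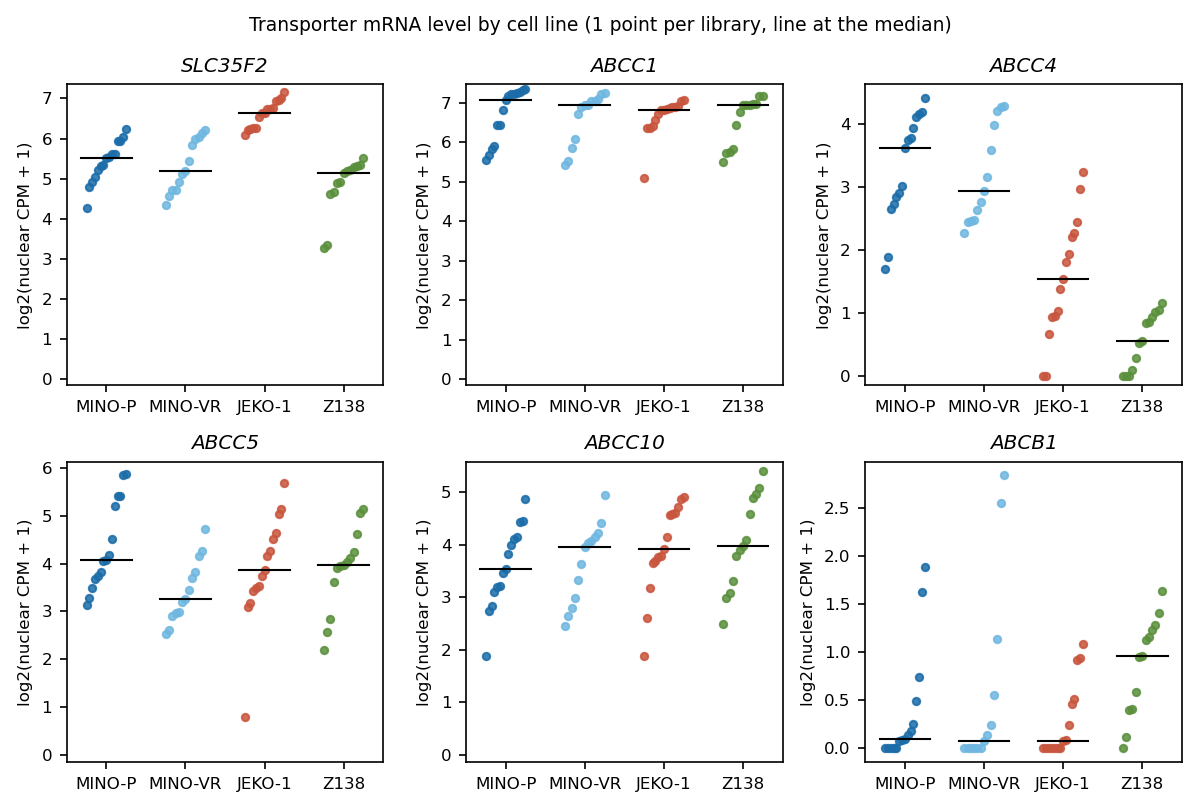
Level of each transporter mRNA by cell line, as log2(nuclear CPM + 1) with 1 point per library (15, 13, 15 and 13 libraries), ordered by value within a line, and a bar at the line's median. SLC35F2 was highest in JEKO-1 (median 98.2 nuclear CPM) and ABCC4 was highest in MINO-P (median 11.2), while ABCC1 had similar medians in all lines (113 to 133).

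SLC35F2 was highest in JEKO-1 and lowest in Z138. The gene (ENSG00000110660) spans chr11:107790991-107928294 on GRCh38. Its level was 66.9 to 141 nuclear CPM in JEKO-1 (median 98.2), 18.2 to 74.0 in MINO-P (median 44.6), 19.3 to 73.4 in MINO-VR (median 35.7) and 8.64 to 44.6 in Z138 (median 34.5). Every JEKO-1 library was above every Z138 library, while the JEKO-1 range overlapped those of both MINO cultures. In a limma model over all 56 libraries with treatment, line and library series as terms, SLC35F2 was 1.42 ± 0.21 (SE) higher on the log2 scale in JEKO-1 than in MINO-P (adjusted p = 2.66e-07) and 1.50 ± 0.22 higher than in MINO-VR (adjusted p = 1.95e-07). JEKO-1 was higher at each of the 8 treatments it shared with either MINO culture. The Z138 minus JEKO-1 difference was -1.97 ± 0.18 (adjusted p = 8.39e-13, limma), lower at all 7 shared treatments. Against MINO-P the Z138 difference was -0.55 ± 0.20 (adjusted p = 0.0273, limma), and against MINO-VR the difference of -0.47 did not pass (adjusted p = 0.0730). The value against MINO-VR was called in 4 of 41 alternatives, among them the fit without the series term (-0.665, adjusted p = 0.0050, limma). The Z138 call against MINO-P was lost with CPM as deposited (-0.42, adjusted p = 0.147) and with array weights (-0.33, adjusted p = 0.131). It was also lost when 1 of 4 libraries was left out, with adjusted p of 0.0850 without Z138 IBR replicate 1, 0.0572 without MINO-P YM155, 0.0563 without Z138 YM155 and 0.0531 without MINO-P IBR replicate 3. Line comparisons called a large share of all genes: 39.1% of 17203 genes were called for JEKO-1 against MINO-P, 39.3% for Z138 against MINO-P, 39.9% for JEKO-1 against MINO-VR, 40.8% for Z138 against MINO-VR and 54.5% for Z138 against JEKO-1. Of the 6 transporters, 3 were called in each of these comparisons except Z138 against MINO-VR, with 2. MINO-VR and MINO-P, where 7.33% of genes were called, differed in 0 of the 6 by limma, with ABCC5 passing an unadjusted p under 0.05.

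Most tested genes beside SLC35F2 on chromosome 11 were also lower in Z138 than in JEKO-1. Starts are taken as lower coordinates, which for SLC35F2, on the minus strand, is where the gene ends. Of 12 tested genes that start within 1 Mb of that point, 9 were lower and 1 higher in Z138 than in JEKO-1. Over all genes, 54.5% were called there, in either direction. The median log2 difference of the 12 was -1.19 against -0.05 over all genes. The difference was -1.98 ± 0.16 for the ATP-dependent RNA helicase gene DDX10 and -2.04 ± 0.16 for ACAT1, which encodes a mitochondrial thiolase, close to the -1.97 of SLC35F2. In JEKO-1 against MINO-P, 5 of the 12 were higher and 0 lower, near the 39.1% of all genes called. The median of the 12 was 0.27, and 0.06 over all genes. The largest of these differences was that of RAB39A, a Rab GTPase gene, at 1.95 ± 0.26. In Z138 against MINO-P, 7 were lower and 1 higher (median -0.72), where 39.3% of all genes were called.

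**Figure D2:**
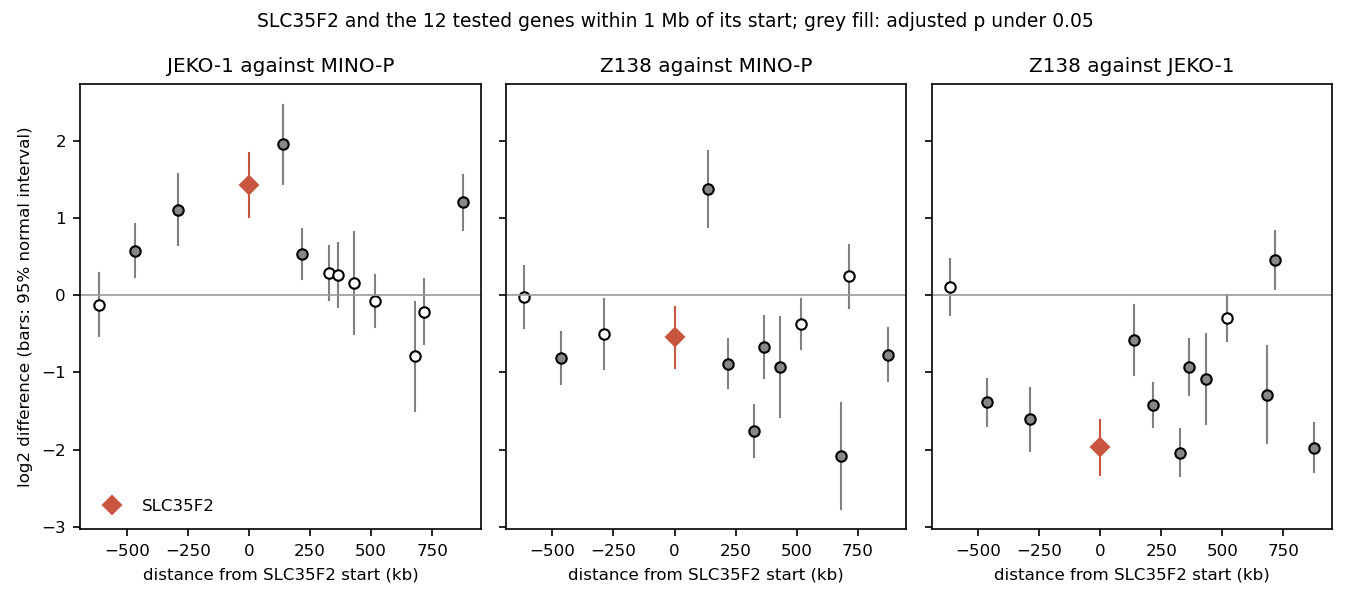
Fitted log2 difference between lines for SLC35F2 (diamond) and the 12 tested genes within 1 Mb of its start (circles), against distance from that start in kilobases, with bars of the 95% interval and grey fill for adjusted p under 0.05. The start is the lower coordinate, where this minus-strand gene ends. In Z138 against JEKO-1, 9 of the 12 neighbours lie below 0 with grey fill, from -0.58 (RAB39A) to -2.04 (ACAT1), and SLC35F2 lies at -1.97. That comparison called 54.5% of all genes.

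SLC35F2 was lower after IBR in 3 of the 4 lines. In MINO-P it was at 65.2 nuclear CPM in CON and at 26.5, 18.2 and 38.5 with IBR. In MINO-VR it was at 70.0 in CON and at 19.3, 22.9 and 29.1 with IBR. In Z138 the CON libraries were at 38.5 and 44.6 and the IBR libraries at 9.12 and 24.3. Replicates 1 and 2 of IBR in each MINO culture are close name pairs and may not be independent cultures. All 8 IBR libraries of MINO-P, MINO-VR and Z138 were below the CON level of their own line. JEKO-1 did not share this: CON was at 73.1 and IBR at 66.9, 76.4 and 106, so the groups overlapped. Over all lines the difference was -0.82 ± 0.28 on the log2 scale (95% interval -1.38 to -0.27, adjusted p = 0.0452, limma). IBR against CON called 10.8% of 17203 genes, and 2 of the 6 transporters, SLC35F2 and ABCC4, both lower, as were 6.39% of genes. The SLC35F2 call held in 13 of 34 alternatives, whose adjusted p ran from 0.00286 to 0.482, and it was lost at -0.61 when libraries of the same name were averaged (adjusted p = 0.329), at -0.43 without Z138 (adjusted p = 0.482), and without any 1 of 11 libraries (adjusted p 0.0518 to 0.177, highest without Z138 CON replicate 2). Those 11 were both MINO CON libraries, replicates 1 and 2 of IBR in JEKO-1 and each MINO culture, both Z138 CON libraries and Z138 IBR replicate 1. The CON libraries of MINO-P and MINO-VR carry names of one series (HK) and their IBR libraries names of another (MCL), which the model holds only through a series term.

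Within the MCL series, the MINO cultures treated with YM155 or S63845 alone gave a further set of values. SLC35F2 was at 74.0 with YM155 and at 60.6 and 47.9 with S63845 in MINO-P, and at 56.2 and 73.4 in MINO-VR. Each of these 5 libraries was above the 6 IBR libraries of the same cultures, whose highest value was 38.5. Of those 6, replicates 1 and 2 of each culture are close name pairs. The comparison was noticed in the values and was not tested.

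Whether the SLC35F2 difference under IBR itself varied between lines was tested in JEKO-1 and Z138, whose 25 libraries of 7 shared treatments all belong to the MCL series. With 1 CON library in JEKO-1 and 2 in Z138, IBR minus CON was -1.41 ± 0.40 in Z138 (adjusted p = 0.170) and 0.15 ± 0.47 in JEKO-1 (adjusted p = 1.00). The difference between those values was -1.56 ± 0.62 (95% interval -2.88 to -0.25), with an adjusted p of 1.00 by limma. That model called 0 of 16262 genes for the difference between lines and 0 within Z138, and 0.043% within JEKO-1, and 0 of the 6 transporters in each. At an unadjusted p under 0.05 it had 626, 1690 and 1230 genes.

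The remaining treatments gave SLC35F2 values on both sides of CON. With BTZ it was at 44.6 in MINO-P, 62.5 in MINO-VR and 8.64 in Z138, each below its own CON, and at 98.2, 98.0 and 128 in JEKO-1, all above the JEKO-1 CON library. The fitted BTZ difference was -0.53 ± 0.28 (adjusted p = 0.201, limma), in a comparison that called 18.6% of genes and 0 of the 6 transporters, none of which passed an unadjusted p under 0.05 either. Without JEKO-1 it was -1.02 (adjusted p = 0.0248), and over 29 alternatives the adjusted p ran from 0.0248 to 0.998. The test of BTZ in Z138 against BTZ in JEKO-1 gave -2.69 ± 0.68 (adjusted p = 0.327, limma), resting on 1 Z138 BTZ and 1 JEKO-1 CON library, with 0 of 16262 genes called and 1314 at an unadjusted p under 0.05. With YM155 alone, the drug this carrier imports, SLC35F2 was at 74.0 in MINO-P, 56.2 in MINO-VR, 141 in JEKO-1 and 29.2 in Z138. The MINO-P and JEKO-1 values were above their CON libraries and the others below. The YM155 difference was 0.25 ± 0.33 (95% interval -0.41 to 0.92, adjusted p = 0.810, limma), and 1.15% of genes and 0 of the 6 transporters were called. CLF alone gave -0.11 ± 0.28 and S63845 alone 0.11 ± 0.30, in comparisons that called 0 genes by limma, where 62 and 428 genes had an unadjusted p under 0.05.

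SLC35F2 means with CLF, YM155 or S63845 added to IBR were above the IBR means. With IBR_CLF it was at 32.2 and 29.3 in MINO-P, 25.2 and 25.3 in MINO-VR, 123 and 122 in JEKO-1, and 35.6 and 23.7 in Z138. Only in JEKO-1 did the IBR_CLF libraries lie wholly above the IBR libraries. The mean was above that of IBR in 4 of 4 lines, and the fitted difference was 0.43 ± 0.21 (adjusted p = 0.511, limma), in a comparison that called 0 of 17203 genes, with 1679 at an unadjusted p under 0.05. The JEKO-1 IBR_CLF libraries were 60.7% and 59.1% mitochondrial. IBR_YM155 was at 48.1 in MINO-P and 28.7 in Z138, above every IBR library of the same line, with a fitted difference of 0.77 ± 0.36 (adjusted p = 0.936, limma). That comparison called 0 genes, with 910 at an unadjusted p under 0.05. The 1 IBR_S63845 library, of MINO-P, was at 36.1. That is above the IBR mean of 27.75 there and below the highest IBR library (38.5). The combinations with BTZ gave 39.6 (BTZ_CLF) and 45.8 (BTZ_YM155) in MINO-P, 33.4, 42.4 and 35.7 (BTZ_S63845) in MINO-VR, and 91.7 and 107 (BTZ_CLF) in JEKO-1. Neither BTZ_CLF against BTZ (0.0698% of genes called) nor BTZ_YM155 against BTZ (0.477%) called SLC35F2 or any other of the 6.

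**Figure D3:**
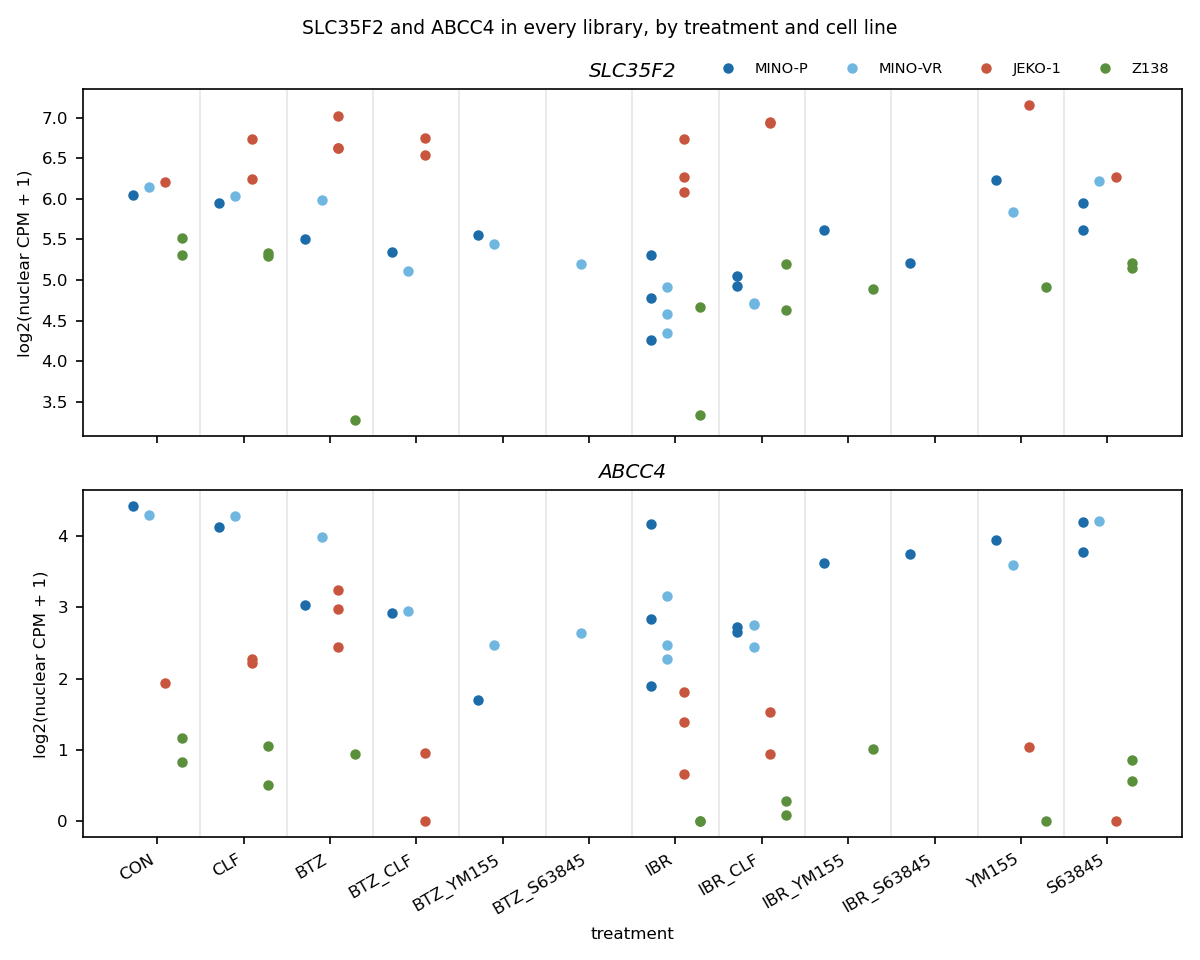
SLC35F2 (top) and ABCC4 (bottom) in all 56 libraries as log2(nuclear CPM + 1), by treatment, with 1 point per library coloured by cell line. For SLC35F2 the IBR points of MINO-P, MINO-VR and Z138 lie below the CON points of the same line, and those of JEKO-1 do not. For ABCC4 the MINO cultures lie above Z138 at each treatment they share.

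ABCC4 was higher in both MINO cultures than in JEKO-1 and Z138. The gene (ENSG00000125257) spans chr13:95019835-95301476. It was at 2.26 to 20.3 nuclear CPM in MINO-P (median 11.2), 3.83 to 18.5 in MINO-VR (median 6.69), 0 to 8.41 in JEKO-1 (median 1.90) and 0 to 1.24 in Z138 (median 0.474). No Z138 library reached the lowest MINO library, and the JEKO-1 range overlapped the others. On the log2(nuclear CPM + 1) scale, which understates changes of low values, ABCC4 was lower in Z138, with differences of -3.02 ± 0.27 from MINO-P and -3.05 ± 0.28 from MINO-VR (adjusted p = 2.63e-13 and 1.35e-12, limma). In JEKO-1 the differences were -1.89 ± 0.28 from MINO-P (adjusted p = 2.54e-07) and -1.91 ± 0.29 from MINO-VR (adjusted p = 4.17e-07). Z138 minus JEKO-1 was -1.13 ± 0.24 (adjusted p = 1.11e-04). These 5 calls held in all alternatives run. Its chromosome 13 neighbours did not follow it: of 6 tested genes within 1 Mb, 4 were higher and 0 lower in Z138 than in MINO-P, with a median of 0.96. That comparison called 39.3% of all genes.

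ABCC4 was also lower with IBR. It was at 20.3 nuclear CPM in MINO-P CON and 2.71, 6.15 and 17.0 with IBR. In MINO-VR the values were 18.5 in CON and 4.53, 3.83 and 7.91 with IBR. All 6 IBR libraries of the MINO cultures were below CON, MINO-P replicate 3 only slightly. Replicates 1 and 2 of IBR in each MINO culture are close name pairs. In JEKO-1 ABCC4 was at 2.82 in CON and 2.50, 1.61 and 0.592 with IBR, and in Z138 at 0.780 and 1.24 in CON and at 0 in both IBR libraries. The mean was below CON in 4 of 4 lines. The fitted difference was -1.18 ± 0.37 (95% interval -1.92 to -0.44, adjusted p = 0.0290, limma). The call held in 23 of 34 alternatives (adjusted p 0.00107 to 0.378) and was lost with libraries of the same name averaged (adjusted p = 0.0846) and without MINO-P CON (0.0647), MINO-VR CON (0.0524) or Z138 CON replicate 2 (0.0750).

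ABCC4 values under BTZ combinations were low. In JEKO-1 it was at 6.86, 4.46 and 8.41 with BTZ and at 0 and 0.940 with BTZ_CLF, where 3 reads correspond to 2.18 and 1.41. In the MINO cultures BTZ gave 7.14 and 14.8, BTZ_CLF 6.53 and 6.69, and BTZ_YM155 2.26 and 4.56. BTZ_S63845, with 1 library in MINO-VR, gave 5.245. BTZ_CLF was below BTZ in 3 of 3 lines (log2 difference -2.41 to -0.11), and BTZ_YM155 in 2 of 2. The differences were -1.57 ± 0.40 (adjusted p = 0.169) and -2.14 ± 0.55 (adjusted p = 0.0587) by limma, and neither passed. The second was called in 9 of 25 alternatives (adjusted p 0.0281 to 0.956) and the first in 4 of 28. Within the MINO cultures BTZ_YM155 minus BTZ was -1.51 and -1.32 on the log2 scale, both smaller in size than the fitted -2.14. Their BTZ libraries are of the HK series and their BTZ_YM155 libraries of the MCL series. With BTZ alone the fitted ABCC4 difference was 0.10 ± 0.37 (adjusted p = 0.889), although the mean was below CON in 3 of 4 lines and above it in JEKO-1. Among the 8 HK libraries alone, which hold MINO-P and MINO-VR with CON, CLF, BTZ and BTZ_CLF, BTZ against CON gave -0.84 ± 0.31 for ABCC4 (adjusted p = 0.0834, limma). That comparison called 26.3% of 13442 genes and 0 of the 5 transporters it could test.

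**Figure D4:**
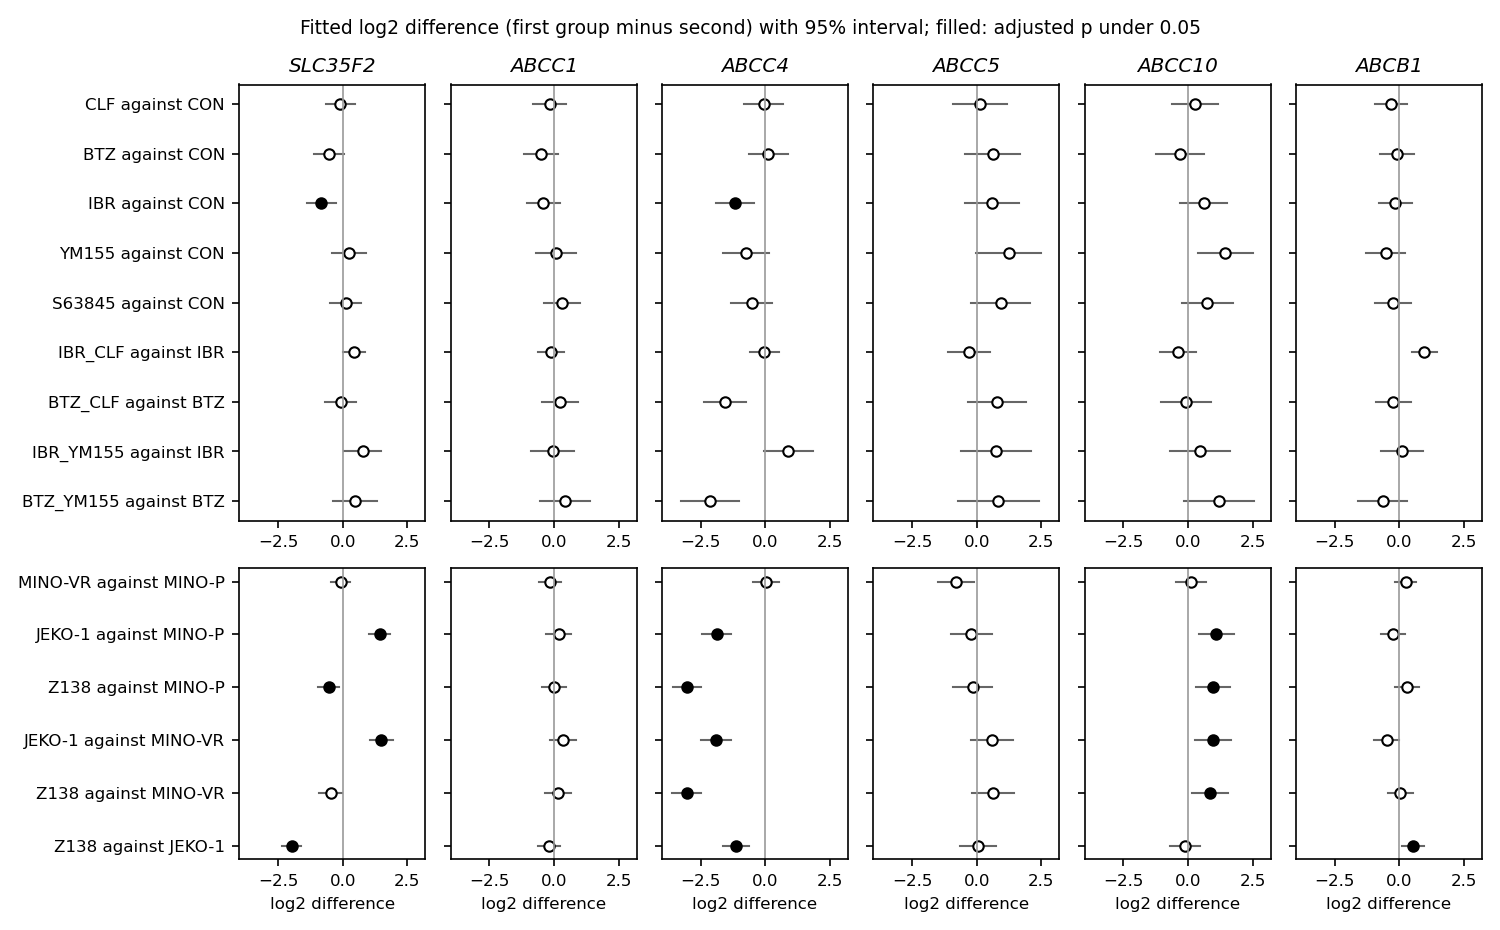
Fitted log2 difference (first group minus second) with its 95% interval for each transporter in 9 treatment comparisons (top) and 6 line comparisons (bottom), from limma over 56 libraries. Filled circles have an adjusted p under 0.05, and the filled treatment circles are SLC35F2 (-0.82) and ABCC4 (-1.18) under IBR.

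ABCC10 was at similar medians in all lines, and its fitted line differences depended on the model. The gene (ENSG00000124574) spans chr6:43427366-43450431, and its end overlaps DLK2 on the opposite strand, which unstranded counting cannot tell apart. It ranged from 2.66 to 28.2 nuclear CPM in MINO-P (median 10.6), 4.46 to 29.6 in MINO-VR (median 14.5), 2.66 to 29.1 in JEKO-1 (median 14.1) and 4.59 to 41.4 in Z138 (median 14.7), with full overlap. With treatment and series held, ABCC10 was higher than in MINO-P by 1.09 ± 0.34 in JEKO-1 (adjusted p = 0.00835) and by 0.97 ± 0.33 in Z138 (adjusted p = 0.0151). Against MINO-VR the values were 0.98 ± 0.35 (adjusted p = 0.0224) and 0.86 ± 0.35 (adjusted p = 0.0422, limma). Without the series term these became 0.48, 0.47, 0.33 and 0.32, with adjusted p of 0.215, 0.255, 0.423 and 0.482, so none of the 4 calls held. The call of Z138 against MINO-VR was also lost without any 1 of 13 libraries (adjusted p up to 0.125): MINO-VR CON, CLF, S63845, IBR replicate 1 or 2 and IBR_CLF replicate 1 or 2, and Z138 IBR_CLF replicate 1 or 2 and replicate 2 of CON, CLF, IBR or S63845. That of Z138 against MINO-P was lost without Z138 IBR_CLF replicate 2 (adjusted p = 0.0502). It was lost with the final letter of library names as a replicate block in the MCL libraries alone (0.0862). It was also lost without MINO-VR (0.0584). With CPM as deposited, the JEKO-1 calls were lost against MINO-P (0.096) and against MINO-VR (0.199). The JEKO-1 call against MINO-VR was also lost with same-name libraries averaged (0.084) and without MINO IBR replicates 1 and 2 (0.107). With YM155, ABCC10 was at 15.0 in MINO-P and 29.7 in MINO-VR, against 13.1 and 15.8 in CON. It was at 29.1 in JEKO-1, against 16.8, and at 23.1 in Z138, against 7.41 and 15.9. Each YM155 library was above the CON libraries of its line, but the difference of 1.45 ± 0.53 did not pass (95% interval 0.38 to 2.52, adjusted p = 0.172, limma). Within single lines the log2 difference was 0.18 to 1.02, in each below the fitted value. In the MINO cultures the CON libraries are of the HK series and the YM155 libraries of the MCL series. With CLF alone the mean was also above CON in 4 of 4 lines, by 0.28 ± 0.45 in the fit.

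ABCC1 was at 33.4 nuclear CPM or more in all 56 libraries and was called in no comparison. The gene (ENSG00000103222) spans chr16:15949138-16143258. Its medians were 133 nuclear CPM in MINO-P, 123 in MINO-VR, 113 in JEKO-1 and 122 in Z138. Low values came in several treatments and lines. With IBR, replicates 1 and 2 of MINO-P were at 55.8 and 46.4 and replicate 3 at 149, against 158 in CON. In MINO-VR replicates 1 and 2 were at 67.5 and 57.4 and replicate 3 at 118, against 123 in CON, and in Z138 the 2 IBR libraries were at 44.7 and 144. IBR_CLF gave 58.8 and 50.8 in MINO-P and 45.0 and 41.7 in MINO-VR, all below the CON library of the culture. Z138 was as low with BTZ (53.2), YM155 (56.4) and IBR_YM155 (52.1), against 123 and 144 in its CON libraries. Replicates 1 and 2 of IBR and of IBR_CLF in each MINO culture are close name pairs, and replicate 3 of IBR lay near CON in both cultures. The IBR mean was below CON in 4 of 4 lines, and the fitted difference was -0.42 ± 0.32 (adjusted p = 0.459, limma). With BTZ the lowest ABCC1 library was JEKO-1 replicate 3 at 33.4, the other JEKO-1 BTZ libraries being at 134 and 113.

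ABCC5 spanned a wide range within each line. The gene (ENSG00000114770) spans chr3:183919934-184017940. It was at 0.738 to 50.2 nuclear CPM in JEKO-1, 7.74 to 57.5 in MINO-P, 4.74 to 25.4 in MINO-VR and 3.60 to 34.3 in Z138. The highest values, 57.5 and 56.9, were those of MINO-P with IBR_YM155 and IBR_S63845, and the lowest was that of JEKO-1 BTZ replicate 3. With YM155 it was at 35.8 in MINO-P and 25.4 in MINO-VR, against 12.4 and 6.79 in CON. It was at 13.5 in JEKO-1, against 18.3, and at 14.0 in Z138, against 4.94 and 6.19. The YM155 libraries were above CON in 3 lines and below it in JEKO-1, and the difference was 1.24 ± 0.62 (adjusted p = 0.348, limma). BTZ gave 21.85 in MINO-P, 18.1 in MINO-VR, 16.3 in Z138 and 31.7, 24.0 and 0.738 in JEKO-1, with a fitted difference of 0.62 ± 0.53 (adjusted p = 0.461). Without JEKO-1 BTZ replicate 3 that difference was 1.21 and passed (adjusted p = 0.0426), while over all 29 alternatives the adjusted p ran from 0.0390 to 0.942 and 2 passed. MINO-VR was below MINO-P at 8 of 9 shared treatments, with a difference of -0.79 ± 0.34 (adjusted p = 0.180).

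ABCB1 was above background mainly in Z138 and in MINO cultures given IBR_CLF. The gene (ENSG00000085563) spans chr7:87503017-87713324 and overlaps RUNDC3B and HNRNPA1P9 on the opposite strand, so that its few reads could belong to either. In Z138 it was at 0 to 2.10 nuclear CPM (median 0.948), and 11 of 13 libraries were above the level of 3 reads. In JEKO-1 the highest value was 1.11 and 13 of 15 libraries were at or below 3 reads. Z138 was higher than JEKO-1 by 0.54 ± 0.21 on the log2(nuclear CPM + 1) scale (adjusted p = 0.0253, limma). That call was lost in 8 of 44 alternatives (adjusted p 0.00394 to 0.103). Among them was the library-name letter as a replicate block in the MCL libraries alone (0.0859). Another was the fit without the 6 JEKO-1 libraries of over 50% mitochondrial reads (0.0954). Others were the fits without JEKO-1 IBR_CLF replicate 2 (0.0737) and without Z138 S63845 replicate 1 (0.0527).

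With IBR_CLF, ABCB1 was at 2.70 and 2.09 nuclear CPM in MINO-P and at 4.89 and 6.18 in MINO-VR, the latter being 67.8 and 87.8 recovered reads. With IBR alone it was at 0.406, 0.669 and 0 in MINO-P and at 1.21, 0.464 and 0 in MINO-VR, and with CLF alone at 0.0659 and 0.0541. Each of the 4 IBR_CLF libraries was therefore above all other libraries of its culture. RUNDC3B was at 0 in all 4 of these libraries, and whether reads there belong to HNRNPA1P9 was not tested. In JEKO-1 IBR_CLF gave 0.919 and 0, both under the 3-read level, and in Z138 0.928 and 1.35 against 0.328 and 1.23 with IBR. The fitted difference over all lines was 0.97 ± 0.24 (95% interval 0.49 to 1.46, adjusted p = 0.160, limma), and it passed in 2 of 37 alternatives. These were the fit with array weights (1.55, adjusted p = 2.86e-05) and the fit without Z138 (1.19, adjusted p = 0.0121), and the adjusted p reached 1.00 with JEKO-1 and Z138 alone. The IBR_CLF replicates of each MINO culture are close name pairs (chi-square per degree of freedom 7.20 and 6.18), so they may not be independent cultures.

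**Figure D5:**
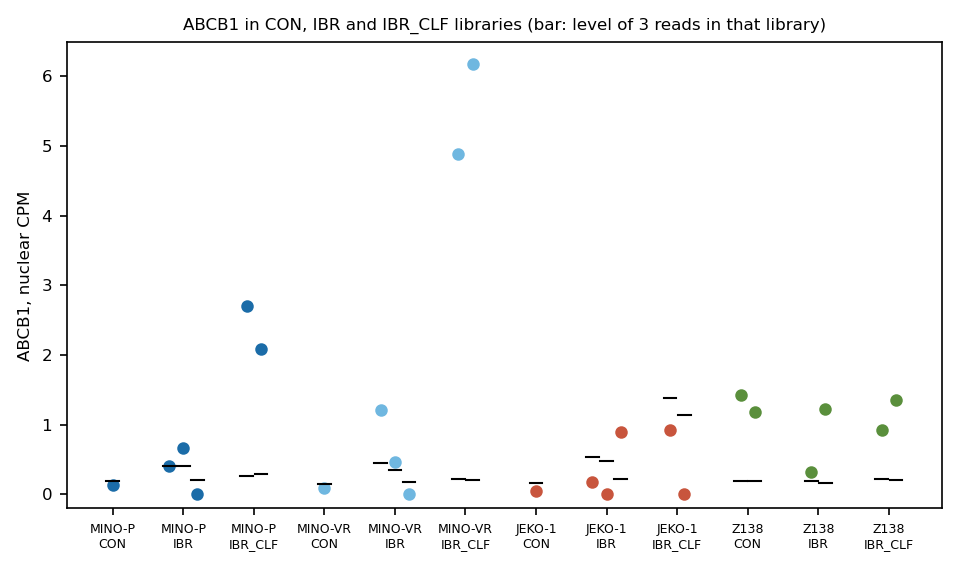
ABCB1 in nuclear CPM in the CON, IBR and IBR_CLF libraries of each line, 1 point per library, with a short bar at the level that 3 reads give in that library. The 4 IBR_CLF points of MINO-P and MINO-VR lie at 2.09 to 6.18, above their bars and above the IBR points, and the JEKO-1 IBR_CLF points lie under their bars.

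Counts of called genes in lists of other transport and glutathione genes are to be read against the share of all genes called, 10.8% for IBR and 18.6% for BTZ. Of 16 tested uptake carriers, 3 were higher and 2 lower with IBR than in CON: SLC7A11, the cystine importer that feeds glutathione synthesis, by 2.29 ± 0.49 (adjusted p = 0.00164), SLCO2B1, an organic anion carrier, by 1.62 ± 0.47, and the folate carrier SLC19A1 by -1.74 ± 0.53 (limma). Their median was 0.34 against 0.00 over all 17203 genes. Of 25 other ABC genes tested, 1 was higher and 3 were lower. ABCB6, a porphyrin transporter, was higher by 1.95 ± 0.52, and the lipid transporters ABCA6 and ABCG1 differed by -1.96 ± 0.60 and -1.80 ± 0.44. Of 12 glutathione and NRF2 genes, 7 were higher and 0 lower, with HMOX1, which degrades heme, at 5.70 ± 0.91 and the quinone reductase NQO1 at 3.65 ± 0.64. With BTZ, 6 of these 12 were higher and 1 lower, 2 uptake carriers were higher and 3 lower, and SLC35F6, a family member of SLC35F2, was higher by 1.10 ± 0.31 (adjusted p = 0.00978, limma). Of the 25 ABC genes, 1 was higher and 7 were lower with BTZ, with ABCG1 at -2.40 ± 0.45, and ABCA3 differed by -1.63 ± 0.45. SLC29A1, which carries nucleosides and their drug analogues, differed by -2.07 ± 0.34 with BTZ. Between lines, the carrier SLCO3A1 was higher in JEKO-1 than in MINO-P by 5.46 ± 0.21 and the copper carrier SLC31A1 by 2.10 ± 0.16. These lists were drawn up with results of these data known, and their counts describe the lists only.

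Across line and treatment, SLC35F2 was most like its neighbour DDX10. Over the 37 group means the Pearson correlation of log2 levels was 0.92 with DDX10, 0.87 with FAM85B and 0.86 with SHLD2. After each line's mean was subtracted over the 56 libraries, the closest genes were the RNA helicase gene DDX18 (0.83), the chromatin remodelling gene BAZ1A (0.83) and DDX10 (0.82). For ABCC1 the closest by the second measure were NSUN2 (0.85), PIEZO1 (0.84) and PPRC1 (0.83), and for ABCC4 they were LYRM4-AS1 (0.74), LCK (0.71) and TRAF5 (0.68). SPG7 led for ABCC5 by both measures (0.82 and 0.83), GON4L for ABCC10 (0.83) and ADGRG1 for ABCB1 (0.69). Among the 6, the correlation was 0.63 between SLC35F2 and ABCC1 and 0.62 between ABCC1 and ABCC10, while SLC35F2 and ABCC5 were at -0.06. The points share libraries, treatments and scaling, and each value is the highest of many, so these are descriptions.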

How the data were processed

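Poly-A RNA-seq of 56 libraries was analysed from 1 table. The deposited values are log2(CPM + 1): after reversal each library summed to within rounding of the total that CPM implies. The submitters' processing notes name Partek and hg38, and the aligner, counter, annotation and use of strand are not given in the sources used here. Libraries were grouped by the line and treatment in their labels, into 37 groups (22 of 1 library, 11 of 2 and 4 of 3). Read numbers were recovered from the step between low values, and 77.4% to 89.8% of low values per library came out whole within 0.05 of a read, so no count test was run.

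Values were rescaled to nuclear CPM without 15 mitochondrially encoded genes. Genes at 1 nuclear CPM or more in at least 2 libraries were tested with limma 3.58.1 (R 4.3.3, intensity trend) on log2(nuclear CPM + 1), with Benjamini-Hochberg adjusted p under 0.05 over all genes tested. The model held treatment, line and library series (HK, 8 libraries, or MCL, 48). Separate models covered JEKO-1 with Z138 and the HK libraries. All were run on simulated data with independent noise per library and no line, series or close-pair effects, so those effects were not covered. Gene spans and neighbour windows use the positions given with the deposited values, and GENCODE 29 gave strands, exon lengths and overlapping genes. All 6 transporters were named, and of each gene list up to 3 called genes per comparison with the largest change and a mean of at least 1 nuclear CPM. The members and lists were chosen with earlier results of these data known. Alternatives covered scaling, pseudocount, filter, weights, model terms, and leaving out lines or libraries. Intervals and the 3-read level cover the spread between libraries and counting error only.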

Additional observations from a re-analysis of the deposited data

How the results depend on the processing

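Of 16 called values of the 6 transporters, 8 were called under every alternative run and 0 changed sign. Of 103 values not called, 13 were called under at least 1 alternative and 50 changed sign without a call. For IBR against CON, 2 transporters were called, against 1 with CPM as deposited, with a pseudocount of 4, without a filter, and without the 6 JEKO-1 libraries over 50% mitochondrial, and 0 with same-name libraries averaged, without MINO-P, MINO-VR or Z138, with JEKO-1 and Z138 only, and without MINO IBR replicates 1 and 2. The omissions of the 6 libraries and of the MINO IBR replicates were chosen after seeing the data. From 0 called, 1 was called for BTZ against CON (CPM as deposited, array weights, without JEKO-1), YM155 against CON (array weights, without JEKO-1), IBR_CLF against IBR (array weights, without Z138), BTZ_CLF against BTZ (without MINO-P, JEKO-1 and Z138 only), BTZ_YM155 against BTZ (size factors, no filter, at least 1 nuclear CPM in every library, no intensity trend, without MINO IBR replicates 1 and 2), MINO-VR against MINO-P (array weights, without JEKO-1) and BTZ in Z138 minus JEKO-1 (array weights). For Z138 against MINO-VR, 2 became 1 without a filter, with same-name libraries averaged and without MINO IBR replicates 1 and 2. For Z138 against MINO-P, the SLC35F2 call was lost with CPM as deposited (adjusted p = 0.147) and with array weights (adjusted p = 0.131). The cause was not tested.

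The labels carry no replicate numbers, so the final letter of library names was used as a replicate block in the MCL libraries. Under that replicate block the transporters called were 0 for IBR against CON, 1 for BTZ_CLF against BTZ, 1 for BTZ_YM155 against BTZ, 1 for Z138 against MINO-VR, and 2 in place of 3 for Z138 against MINO-P (ABCC10 lost, adjusted p = 0.0862) and against JEKO-1 (ABCB1 lost, adjusted p = 0.0859). Each of the 5 lost calls kept its sign with a smaller fitted difference, as in ABCB1 for Z138 against JEKO-1 (0.48, and 0.54 as reported). The libraries of a letter share only that letter in the labels.

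Leaving out 1 library at a time gave 0 to 2 called for IBR against CON, 0 to 1 for BTZ against CON, BTZ_CLF against BTZ, BTZ_YM155 against BTZ and BTZ in the HK libraries, 2 to 3 for Z138 against MINO-P and against JEKO-1, 1 to 2 for Z138 against MINO-VR, and 3 throughout for JEKO-1 against MINO-P and MINO-VR. The remaining comparisons stayed at 0.

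Counts over all genes also moved: 191 to 5055 for IBR against CON (1851 as reported), 1214 to 5235 for BTZ (3204), 0 to 1141 for YM155 (197), 0 to 596 for IBR_CLF against IBR (0), 0 to 207 for BTZ_CLF against BTZ (12), 8 to 239 for BTZ_YM155 against BTZ (82), 459 to 4932 for MINO-VR against MINO-P (1261), 0 to 1434 for IBR within JEKO-1 (7), 3634 to 8006 for JEKO-1 against MINO-P (6725), 3581 to 8257 for Z138 against MINO-P (6767), 3726 to 8462 for JEKO-1 against MINO-VR (6871), 3698 to 8913 for Z138 against MINO-VR (7025), 4665 to 10204 for Z138 against JEKO-1 (9377), and 2342 to 3566 for BTZ in the HK libraries (3537). Depth limits ABCB1, at or below 3 reads in 36 libraries, and ABCC4 in Z138.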
